A study of Mus musculus with 6 samples.

Results

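The genes that make prostaglandins, thromboxane and leukotrienes were examined in mouse hippocampus after cerebral ischemia and reperfusion (I/R). The 9 listed genes were looked up by symbol: Pla2g4a, Ptgs1, Ptgs2, Ptges, Tbxas1, Alox5, Alox5ap, Ltc4s and Hpgd. Of these, 8 had a row among the 41386 genes of the count table, and Ltc4s was not analysed here. The row of Ptgs2 carried no gene name and was identified by the symbol that its KEGG annotation text gives. The samples were 6 RNA-seq libraries of hippocampus from C57BL/6 mice (C57BL/6J in the study's methods), for which the labels name no genetic change, 3 from the I/R group and 3 from the sham group. I/R mice had the middle cerebral artery blocked by a filament for 1.5 h (middle cerebral artery occlusion, MCAO) and then 24 h of reperfusion, and sham mice had the surgery without the filament. Per the study's methods the mice were 8-week-old males (56 days), the hippocampus was taken from the operated side, and each library was made from 3 pooled hippocampi. Replicates are therefore pools rather than single animals.

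Eicosanoids are short-lived lipid signals made from arachidonic acid. Phospholipase frees the acid from membranes, cyclooxygenase turns it into prostaglandin H2, and terminal synthases turn that into prostaglandin E2, thromboxane A2 and other prostanoids. In the other branch, 5-lipoxygenase and its activating protein make leukotriene A4, the precursor of leukotrienes B4 and C4. In brain, Ptgs2 is known as a neuronal gene that rises with synaptic activity and with inflammation, whereas the leukotriene enzymes are known mainly from myeloid cells.

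Of the 8 genes measured, 6 rose in I/R hippocampus (Ptges, Pla2g4a, Ptgs2, Tbxas1, Alox5ap and Hpgd), 0 fell, and Ptgs1 and Alox5 did not pass the test. All 8 passed the filter on low counts. A gene was called at an adjusted p under 0.05 in edgeR's quasi-likelihood test together with a change of more than 1.2-fold either way. By that rule 41.8% of the 18569 genes tested were called, 21.8% as higher and 19.9% as lower in I/R. The median log2 fold change was 1.08 over the 8 genes and 0.03 over all genes tested. For 6 of the 8, the 3 I/R libraries all lay above the 3 sham libraries, an arrangement that 29.3% of all tested genes showed. With a fold over 2 in place of 1.2, 5 of the 8 were called higher, against 10.2% of all genes.

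Levels below are CPM, counts relative to a library size scaled with TMM (trimmed mean of M-values) factors, given as mean ± SD (n = 3 libraries). The total count was 37493042 to 44788547 per library. Whole hippocampus was sequenced, so a change in the number of cells of a type and a change in RNA per cell cannot be told apart. Neuron markers fell (8 of 8 called lower) and monocyte and macrophage markers rose (7 of 8). Hippocampus markers were lower in I/R (6 of 8 called) but present in every library, with a summed level of 264.6 to 644.3 CPM after I/R against 1148 to 1187 in sham. Choroid plexus RNA was uneven within both groups: Ttr, its main transcript, had 68521, 138610 and 810 counts after I/R, against 385, 101015 and 140679 in sham.

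**Figure D1:**
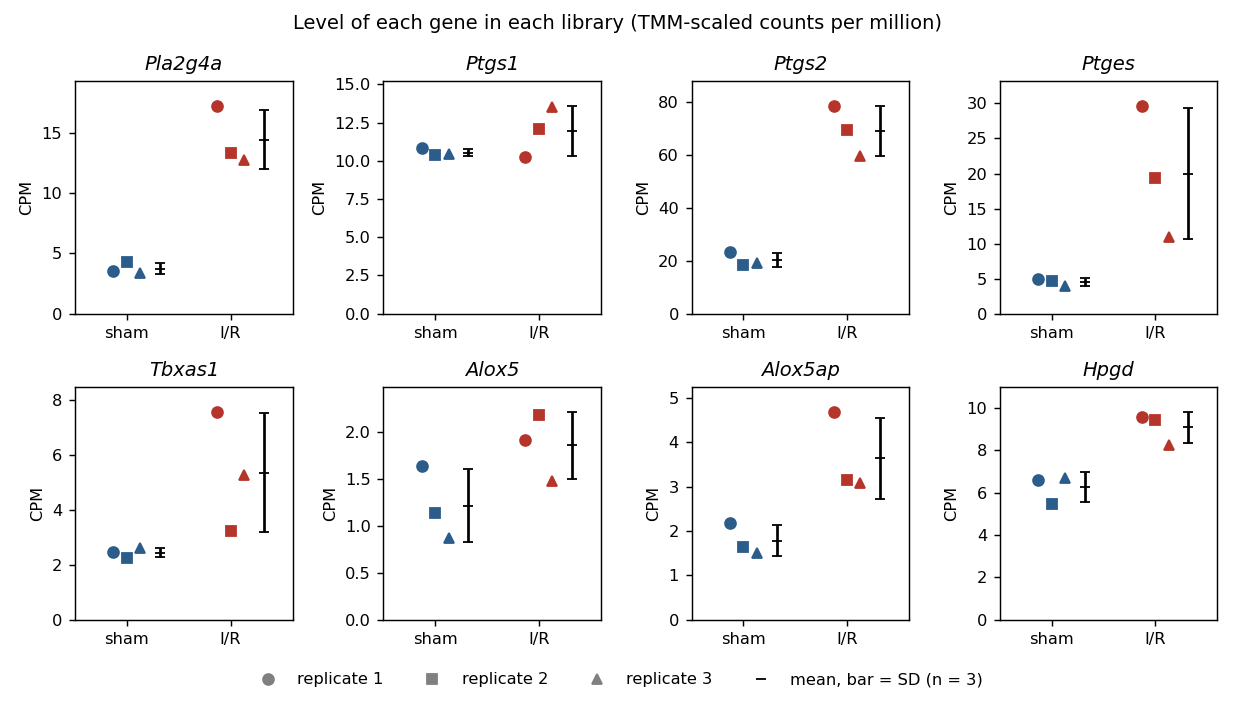
CPM of the 8 genes in each of the 6 libraries, with the group mean and SD beside the points and a separate linear axis from 0 for each gene. The 3 I/R libraries lie above the 3 sham libraries for Pla2g4a, Ptgs2, Ptges, Tbxas1, Alox5ap and Hpgd, and the groups overlap for Ptgs1 and Alox5.

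The sequences before the start sites of 4 of these genes are shown first, since the inducible and the constitutive cyclooxygenase, and the 2 other genes with the largest changes, can be compared there. They are the 250 bases before the RefSeq start on GRCm38.p6, written 5′ to 3′ on the gene's strand, and capitals mark matches to a motif searched for on both strands. Of the 9 listed genes, 8 matched the promoter table, in which Alox5ap has no entry. Ptgs2 lies at chr1:150099781-150100030 (+), Ptges at chr2:30903298-30903547 (-), Pla2g4a, the first of its 2 listed starts, at chr1:149961291-149961540 (-), and Ptgs1 at chr2:36230176-36230425 (+).
Ptgs2: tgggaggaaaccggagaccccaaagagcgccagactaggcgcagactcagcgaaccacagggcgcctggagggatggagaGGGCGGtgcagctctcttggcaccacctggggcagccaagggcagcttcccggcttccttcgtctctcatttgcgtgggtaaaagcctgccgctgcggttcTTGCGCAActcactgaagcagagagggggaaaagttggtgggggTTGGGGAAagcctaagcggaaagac
Ptges: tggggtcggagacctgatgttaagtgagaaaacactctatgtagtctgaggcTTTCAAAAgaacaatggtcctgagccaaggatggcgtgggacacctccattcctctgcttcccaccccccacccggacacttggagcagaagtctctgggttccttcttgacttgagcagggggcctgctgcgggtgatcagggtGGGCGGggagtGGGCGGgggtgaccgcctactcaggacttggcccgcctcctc
Pla2g4a: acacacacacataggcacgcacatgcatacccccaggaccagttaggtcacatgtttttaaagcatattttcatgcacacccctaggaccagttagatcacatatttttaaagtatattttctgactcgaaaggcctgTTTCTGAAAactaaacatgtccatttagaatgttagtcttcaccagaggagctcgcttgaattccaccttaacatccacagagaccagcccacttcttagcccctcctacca
Ptgs1: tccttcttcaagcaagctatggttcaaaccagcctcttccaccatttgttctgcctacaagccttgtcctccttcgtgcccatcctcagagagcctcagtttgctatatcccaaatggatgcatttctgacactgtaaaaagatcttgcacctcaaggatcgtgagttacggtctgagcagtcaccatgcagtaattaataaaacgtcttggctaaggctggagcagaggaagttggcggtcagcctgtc

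The Ptgs2 stretch held a GC box (GGGCGG) and 2 matches to the C/EBP pattern TTNNGNAA, of which TTGCGCAA, 69 to 62 bases before the start, reads the same on both strands. The Ptges stretch held 2 GC boxes within 53 bases of the start and 1 C/EBP match farther out. The capital run in Pla2g4a is 2 overlapping C/EBP matches, 1 on each strand, and the Ptgs1 stretch held none of the 7 motifs. Among the 8 genes with a promoter entry, Ltc4s included, the GC box was found in 4 (Ptgs2, Ptges, Alox5 and Hpgd) and the C/EBP pattern in 4 (Ptgs2, Ptges, Pla2g4a and Hpgd). Of all 32851 promoter entries, 32.7% held the GC box and 36.8% the C/EBP pattern. The core promoter element TATAAA, held by 12.4% of all entries, occurred in Tbxas1, 11 to 6 bases before its start, and before the other start of Pla2g4a. The pattern searched for AP-1, TGANTCA, in which N is any base, was held by 6.75% and matched Tbxas1 as TGATTCA. Matches to CGTCA, one side of the cAMP response element and held by 17.8%, were in none of these windows. The same was true of the E-box CACGTG, held by 6.02%, and of the pattern searched for NF-kappa B, GGGANTTCC, held by 1.43%. Other forms of the AP-1 and NF-kappa B sites were not searched for. The GC content was 61.6% before Ptgs2, 59.6% before Ptges, 48.0% before Ptgs1 and 43.2% before Pla2g4a, with a median of 52.4% over all entries.

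The window ends at the listed start, and a search of the 50 bases after it, added after the data were seen, gave Ptgs2 a CGTCA at bases 14 to 18 that overlaps a CACGTG at bases 17 to 22, together CGTCACGTG. In that stretch 3.49% of all entries had CGTCA and 1.08% had CACGTG. The same search gave Hpgd a TATAAA at bases 5 to 10, held there by 1.34% of all entries. For Hpgd the bases just after the listed start were not found in any of its GENCODE M21 transcripts, so its motif counts rest on a start those transcripts do not show. These are matches of letters, and neither binding nor chromatin was measured.

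Pla2g4a encodes cytosolic phospholipase A2 alpha, the calcium-dependent enzyme that frees arachidonic acid from membranes. Sham replicates 1, 2 and 3 had 139, 175 and 116 counts, against 785, 533 and 509 in the I/R replicates. All 3 I/R libraries lay far above the sham libraries, with replicate 1 highest. Mean CPM was 3.74 ± 0.494 in sham against 14.4 ± 2.45 after I/R, with a log2 fold change of 1.94 (SE 0.18, 95% interval 1.53 to 2.36, adjusted p = 0.000414), or 3.85-fold. Pla2g4a and Ptgs2 lie near each other on chromosome 1. In the table's BALB/cJ coordinates Pla2g4a spans chr1:148768640-148901891 on the minus strand and Ptgs2 chr1:149038524-149044490 on the plus strand.

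Ptgs2 encodes cyclooxygenase-2, the inducible enzyme of prostanoid synthesis. Sham libraries had 914, 756 and 660 counts, against 3577, 2781 and 2392 in I/R libraries. It was abundant already in sham hippocampus, and every I/R library exceeded every sham library. Mean CPM was 20.4 ± 2.62 in sham against 69.3 ± 9.38 after I/R, with a log2 fold change of 1.76 (SE 0.14, 95% interval 1.45 to 2.08, adjusted p = 0.00028), or 3.40-fold. Ptgs2os, an opposite-strand transcript that shares 143 bases with its locus, had at most 49 counts in a library.

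Ptgs1 encodes cyclooxygenase-1, the constitutive enzyme, known in brain from microglia and in blood from platelets. Sham libraries had 423, 421 and 360 counts, against 468, 484 and 541 after I/R. After scaling the groups overlapped: I/R replicate 1, the library highest for most of the other genes, had 10.3 CPM, under each sham library (10.4 to 10.8 CPM). The log2 fold change of 0.18 (SE 0.14) did not pass the test (adjusted p = 0.328), and its 95% interval ran from -0.14 to 0.50. The call depended on scaling. With library size alone, under which the median over all genes moves to 0.28, Ptgs1 was called at 0.43 (adjusted p = 0.028), and it was called at 0.38 and 0.42 on the log2(FPKM + 1) and log2(FPKM + 0.1) scales. Over all alternatives its adjusted p ran from 0.0227 to 0.788.

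The inducible enzyme was set against the constitutive one within each library. The ratio of Ptgs2 to Ptgs1 counts, which does not depend on library scaling, was 7.64, 5.75 and 4.42 after I/R, against 2.16, 1.80 and 1.83 in sham. Each I/R ratio was more than 2 times each sham ratio. The mean log2 ratio was 2.53 ± 0.395 in I/R and 0.94 ± 0.146 in sham, a difference of 1.59, or 3.01-fold (exact two-sided permutation test over the 6 libraries, p = 0.1, the smallest that 3 against 3 can give). Of the FPKM (fragments scaled to transcript length and library size) of both genes, Ptgs2 held 84.6% to 90.5% in I/R and 69.1% to 72.9% in sham. Such shares depend on the length used, here 1213 bases for Ptgs2 and 1508 for Ptgs1, against listed gene lengths of 2067 and 2867.

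Ptges encodes microsomal prostaglandin E synthase-1, the inducible enzyme that turns prostaglandin H2 into prostaglandin E2. Its counts were 195, 189 and 135 in sham, against 1350, 773 and 440 after I/R. The groups were well apart, but the I/R libraries spread widely, from 11.0 CPM in replicate 3 to 29.6 CPM in replicate 1, a ratio of 2.70. Mean CPM was 4.52 ± 0.546 in sham against 20.0 ± 9.34 after I/R, with the largest log2 fold change of the 8 genes (2.14, SE 0.33, 95% interval 1.37 to 2.92, adjusted p = 0.00226), or 4.42-fold. Its interval overlapped those of Pla2g4a and Ptgs2, so the order of these 3 changes is not settled.

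Both other prostaglandin E synthases had smaller log2 fold changes. Ptges3, the cytosolic synthase also known as the HSP90 co-chaperone p23, rose by 0.59 (SE 0.10, adjusted p = 0.00267), from 106.9 to 160.6 CPM. Ptges2, the membrane-associated synthase, had a log2 fold change of -0.14 (SE 0.12, adjusted p = 0.367).

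Tbxas1 encodes thromboxane A synthase, known from platelets and macrophages. Sham libraries had 96, 92 and 90 counts, against 344, 129 and 210 after I/R. I/R replicate 2, at 3.23 CPM, lay close to the highest sham library (2.61 CPM), whereas replicate 1 reached 7.55 CPM. The log2 fold change was 1.13 (SE 0.31, adjusted p = 0.0206), or 2.19-fold. It was lost when any sham library was left out (adjusted p = 0.064 without sham replicate 1, 0.0795 without replicate 2 and 0.0583 without replicate 3) and in the 4 libraries with much choroid plexus RNA (0.0997), within a range of 0.00222 to 0.0997 over all alternatives. Tbxas1 overlaps Hipk2 on the other strand by 568 bases. Hipk2 had 1761 to 2277 counts in every library, and whether the counting used strand is not given in the sources used here.

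The ratio of Tbxas1 to Ptgs1 counts was 0.735, 0.267 and 0.388 after I/R, against 0.227, 0.219 and 0.250 in sham. Every I/R ratio was the higher, though replicate 2 only narrowly. The difference in log2 ratio was 0.87, or 1.83-fold (exact two-sided permutation test, p = 0.1), and it was 0.47 without I/R replicate 1.

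Alox5 encodes 5-lipoxygenase, the first enzyme of leukotriene synthesis. It was the least abundant of the 8 genes, with 87, 87 and 59 counts after I/R against 64, 46 and 30 in sham. The groups overlapped, since I/R replicate 3 (1.47 CPM) lay below sham replicate 1 (1.64 CPM). The log2 fold change of 0.61 (SE 0.32, adjusted p = 0.165) did not pass the test, and its 95% interval, from -0.13 to 1.34, leaves room for a fall as well as for a doubling. It was called on the log2(FPKM + 1) scale (0.40, adjusted p = 0.049), within a range of 0.049 to 0.395 over all alternatives.

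Alox5ap encodes the 5-lipoxygenase activating protein, which presents arachidonic acid to the enzyme at the nuclear membrane. Its counts were 85, 67 and 52 in sham, against 213, 126 and 123 after I/R. Each I/R library was above each sham library, with replicate 1 set apart. Mean CPM was 1.78 ± 0.351 in sham against 3.63 ± 0.904 after I/R, with a log2 fold change of 1.03 (SE 0.27, adjusted p = 0.0162), or 2.04-fold. The call was lost without sham replicate 2 (adjusted p = 0.0651) or sham replicate 3 (0.0654), within a range of 0.00189 to 0.0654 over all alternatives. Gm19719, on the other strand, overlaps Alox5ap by 5117 bases, had 37, 42 and 36 counts after I/R against 10, 24 and 10 in sham, and shared 6.8% of the 50-base stretches of the Alox5ap transcripts in GENCODE M21. Its part in the Alox5ap counts was not tested.

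Alox5 and its activating protein were not shown to move apart. Their count ratio was 0.408, 0.690 and 0.480 after I/R, against 0.753, 0.687 and 0.577 in sham, with overlapping groups. The difference in log2 ratio was -0.38 (exact two-sided permutation test, p = 0.3).

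Hpgd encodes 15-hydroxyprostaglandin dehydrogenase, which starts the inactivation of prostaglandins. Sham libraries had 258, 222 and 231 counts, against 435, 377 and 330 after I/R. The groups did not overlap, and both were tight. Mean CPM was 6.26 ± 0.694 in sham against 9.07 ± 0.719 after I/R, with a log2 fold change of 0.54 (SE 0.15, adjusted p = 0.0244), or 1.45-fold, the smallest rise called among the 8. The call was lost without I/R replicate 2 (adjusted p = 0.0842) and without sham replicate 1 (0.0589), replicate 2 (0.0925) or replicate 3 (0.0588). It was also lost in the 4 libraries with much choroid plexus RNA (0.072), within a range of 0.00591 to 0.0925 over all alternatives.

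The ratio of Ptges to Hpgd counts sets synthesis of prostaglandin E2 against prostaglandin inactivation. It was 3.10, 2.05 and 1.33 after I/R, against 0.756, 0.851 and 0.584 in sham. By raw counts Ptges exceeded Hpgd in every I/R library and in no sham library. Per length, the ratio of their FPKM was at or above 1.72 in each I/R library, against 0.973, 1.10 and 0.753 in sham. By FPKM Ptges was thus the higher in sham replicate 2 as well. The deposited FPKM of Ptges corresponded to a length of 1335 bases, against a listed gene length of 3647, while both were 1719 for Hpgd. Which of the 2 genes is higher per length therefore depends on the length used, and the comparison between groups does not. The difference in log2 ratio was 1.50, or 2.82-fold (exact two-sided permutation test, p = 0.1).

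**Figure D2:**
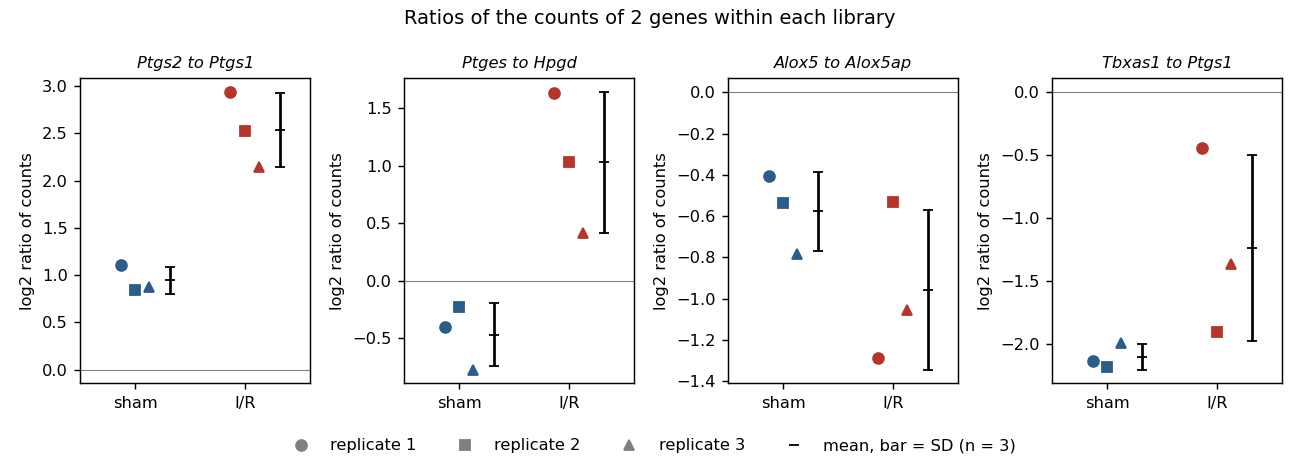
Log2 ratios of the counts of 2 genes within each library for 4 gene pairs, with group means and SD, each panel on its own axis. The I/R and sham libraries are apart for Ptgs2 to Ptgs1 (2.14 to 2.93 against 0.84 to 1.11), Ptges to Hpgd and Tbxas1 to Ptgs1, and overlap for Alox5 to Alox5ap.

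Per length, in the authors' FPKM, Ptgs2 was the most abundant of the 8 genes in both groups, at 62.7 ± 11.2 in I/R and 15.4 ± 2.07 in sham. In sham it was followed by Ptgs1 (6.40), Hpgd (3.33), Ptges (3.10), Alox5ap (2.74), Pla2g4a (2.01), Tbxas1 (1.11) and Alox5 (0.630). The neighbours Hpgd and Ptges, and Ptges and Alox5ap, overlapped between libraries, and the others did not. In I/R Ptges moved to the place after Ptgs2 (16.6 ± 8.47), followed by Pla2g4a (9.30 ± 2.04), Ptgs1 (8.64 ± 0.839), Alox5ap (6.74 ± 2.02) and Hpgd (5.78 ± 0.655). Neighbours within these 5 overlapped, whereas Ptgs2 above them and Tbxas1 (2.91 ± 1.31) and Alox5 (1.15 ± 0.229) below them stood apart. Both orders depend on the gene lengths behind the FPKM. Those lengths were 1335 bases for Ptges, 1705 for Pla2g4a and 1508 for Ptgs1, against listed lengths of 3647, 3453 and 2867. For Hpgd both were 1719. For Alox5ap they were 594 and 921. With the listed lengths the orders of the group means change. In sham Alox5ap then passes Ptges, and in I/R Hpgd passes Pla2g4a, Ptgs1 and Alox5ap. The summed FPKM of the 8 genes was 92.7 to 140.6 in I/R and 32.6 to 38.6 in sham.

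**Figure D3:**
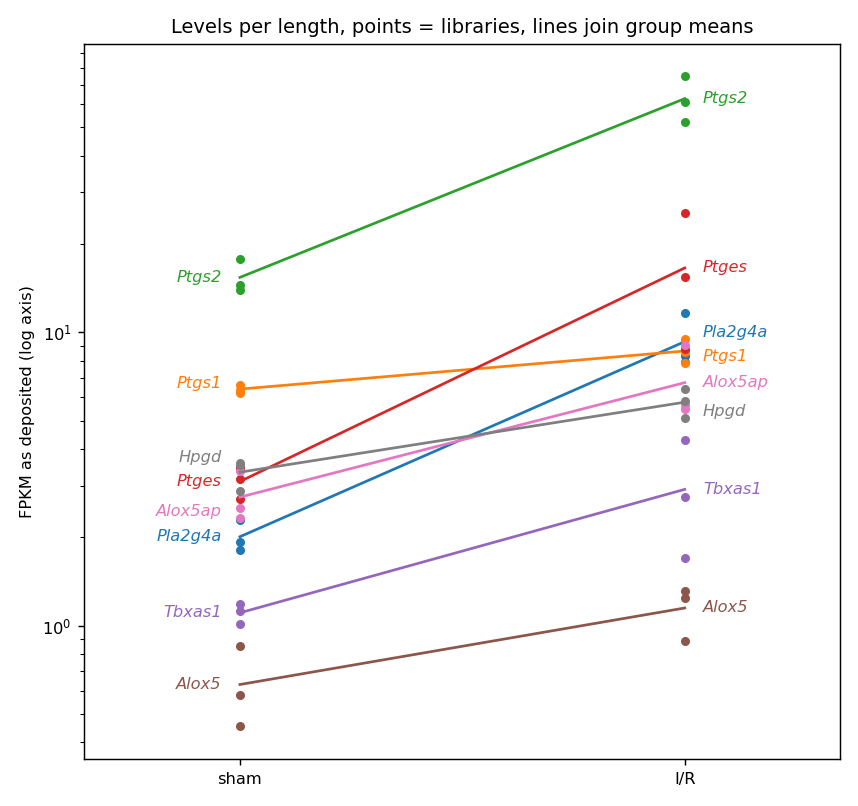
FPKM of the 8 genes in sham and I/R on a log axis, with points for libraries and lines joining the group means. Ptgs2 stays highest and Alox5 lowest, while Ptges and Pla2g4a pass Ptgs1 on the group means, 16.6 and 9.30 against 8.64. Ranks between genes depend on the gene lengths behind the FPKM.

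The rises were not even over the I/R libraries. Replicate 1 was the highest I/R library for 6 of the 8 genes, replicate 2 for Alox5 and replicate 3 for Ptgs1. For Hpgd the lead was narrow (9.55 against 9.43 CPM in replicate 2). How often replicate 1 was the highest over all genes was not counted. The same library had the highest summed level of neutrophil markers (43.6 CPM against 12.6 and 12.3 in the other I/R libraries and 5.69 to 7.19 in sham), of monocyte and macrophage markers (84.8 against 50.2 and 54.9, and 16.3 to 18.5 in sham) and of platelet markers (30.2 against 18.9 and 15.9, and 11.4 to 12.5 in sham). It also had the lowest sum of neuron markers, 2059 CPM against 3786 and 4180, and 7356 to 7721 in sham. The part of these cell types in the rises was not tested. Without I/R replicate 1, 6 of the 8 genes were called, and so were 7976 of all 18739 genes then tested.

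Cell types known for these enzymes were followed with the marker lists. Of the neutrophil markers tested, 4 of 6 rose, with S100a8 at 671, 143 and 118 counts after I/R against 20, 7 and 5 in sham, while Ly6g had 1 count in 1 I/R library and 0 in the other 5. Of the platelet markers, 2 of 4 rose and 1 fell, with log2 fold changes from -0.72 to 3.49. The risers were Pf4, with 519, 239 and 150 counts against 30, 27 and 15, and Itga2b, with 571, 269 and 256 against 94, 109 and 85. Gp9, with 17, 33 and 5 counts against 3, 18 and 2, overlapped between the groups. Pf4 held 11.4 and Itga2b 12.5 of the summed 30.2 CPM in I/R replicate 1, so the sum rests mostly on these 2 genes. Microglia markers were split, with 3 of 10 higher and 4 lower; Cx3cr1 rose by 0.48 (SE 0.17, adjusted p = 0.0489), while the homeostatic marker P2ry12 had a log2 fold change of -1.67 (SE 0.26, adjusted p = 0.00209). The summed level of the microglia markers was 276.4 to 380.9 CPM after I/R against 278.5 to 315.4 in sham. Endothelium markers rose in 7 of 8 cases, and their sum was 398.5 to 620.8 CPM after I/R against 280.4 to 287.5 in sham. Of the 6 mast cell markers, Hdc was the 1 that passed the count filter, with 140 to 145 counts after I/R against 91 to 103 in sham, and it was not called (adjusted p = 0.125). Cpa3, Cma1 and Fcer1a had at most 9 counts in a library, while Tpsb2 reached 22 and Mcpt4 11 counts in sham replicate 2. The summed level of the 6 was 3.54 to 3.97 CPM after I/R against 2.82 to 3.17 in sham. Of the other lists, 2 of 8 astrocyte markers rose and 5 fell, 1 of 8 oligodendrocyte markers rose and 3 fell, and 4 of 8 fibroblast and meninges markers rose. Of 8 striatum markers 2 rose and 2 fell, and of 10 choroid plexus markers 0 rose and 1 fell.

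**Figure D4:**
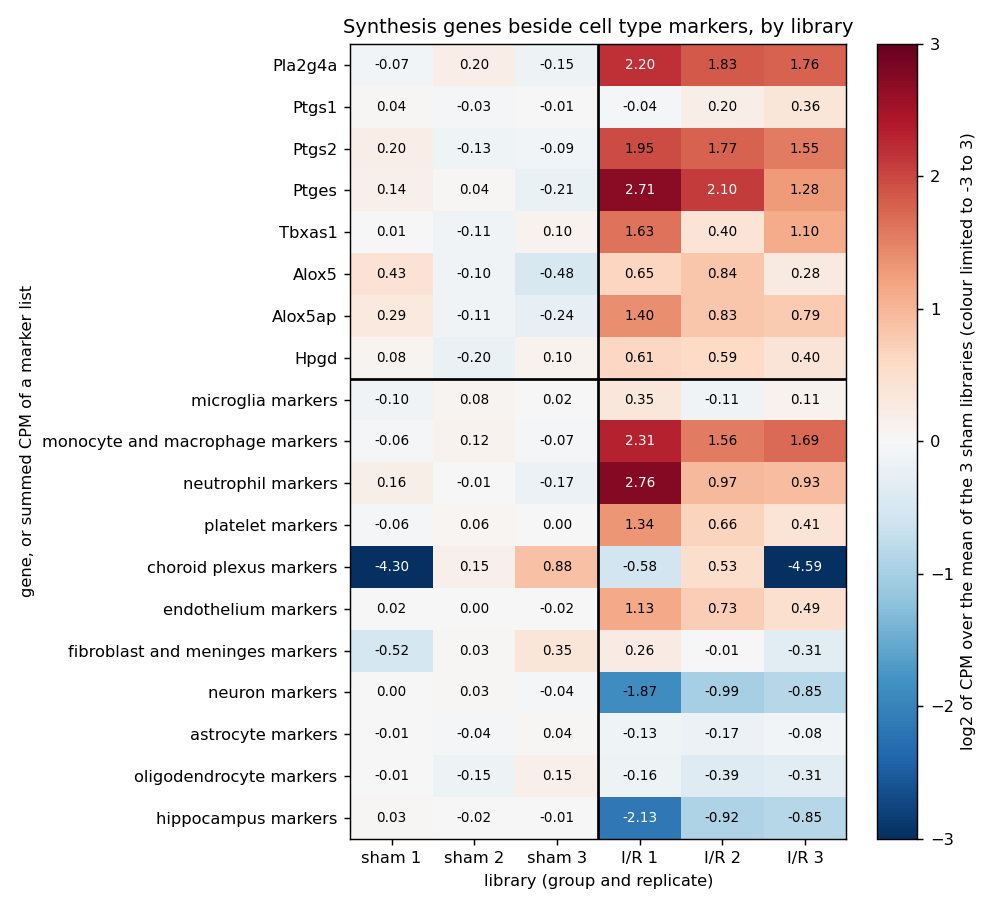
Log2 of the CPM of each gene, or of the summed CPM of each marker list, over the mean of the 3 sham libraries, for each of the 6 libraries, with colour limited to 3 in either direction. I/R replicate 1 has the highest values for Pla2g4a (2.20), Ptges (2.71) and the neutrophil sum (2.76), and the lowest neuron sum (-1.87).

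The genes whose log2 CPM ran most like each of the 8 over the 6 libraries, among 14049 named genes with a mean of at least 1 CPM, were Atf4 for Pla2g4a (r = 0.9995) and H3f3b for Ptgs2 (r = 0.999). They were Dph2 for Ptges, Calcrl for Hpgd and Bcl2l11 for Tbxas1 (r = 0.999 for each). For Alox5ap it was Arhgap25 (r = 0.997), for Alox5 Ext1 (r = 0.988) and for Ptgs1 Fastkd2 (r = 0.983). With 2 groups of 3 libraries, each r also carries the gap between the groups and is given as a description.

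Beyond these 8, 62 of 63 other listed eicosanoid pathway genes had a row and 55 passed the count filter. Of the 55, 12 rose, 12 fell and 31 were not called, and the median log2 fold change was 0.09. That is 43.6% called, near the 41.8% of all genes. I/R replicate 1 was the highest I/R library for 11 of the 12 that rose. The matching share over all genes that rose was not counted, so this is not a trait of the pathway genes.

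In the release group, 1 of 14 rose and 5 fell. The endocannabinoid hydrolases and lipases led the falls. Faah, fatty acid amide hydrolase, had a log2 fold change of -1.57 (SE 0.25, adjusted p = 0.00229), with 1754, 3018 and 3202 counts after I/R against 7715, 7650 and 6549 in sham. Dagla, which makes 2-arachidonoylglycerol, was at -1.44 (SE 0.26, adjusted p = 0.00378). Mgll, monoacylglycerol lipase, a source of free arachidonate in brain and the most abundant gene of this group per length, was at -0.77 (SE 0.11, adjusted p = 0.00161). Pla2g4a and Pla2g3, a secreted phospholipase (0.77, SE 0.18, adjusted p = 0.0105), were the members of the whole release list that rose.

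In prostanoid synthesis, 2 of 7 other genes rose and 1 fell. Hpgds, the hematopoietic prostaglandin D synthase, rose by 0.95 (SE 0.23, adjusted p = 0.0137), with 829, 405 and 466 counts after I/R against 262, 251 and 271 in sham. Ptgds, the lipocalin-type synthase that is among the most abundant transcripts of brain, had 942.2 ± 44.7 CPM after I/R against 993.2 ± 135 in sham. Its log2 fold change of -0.08 (SE 0.14, adjusted p = 0.695) was 0.18 with library size alone and 0.024 without sham replicate 2, and passed the test in none of these.

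In the leukotriene and lipoxygenase group, 1 of 11 other genes rose and 4 fell. Dpep2, a dipeptidase that converts leukotriene D4 to E4, had 49, 16 and 19 counts after I/R against 3, 4 and 0 in sham (log2 fold change 3.37, SE 0.80, adjusted p = 0.0118), so that its fold rests on very few sham reads, and it was 0.42 on the log2(FPKM + 1) scale. Ggt1, which takes leukotriene C4 to D4, was lower at -1.08 (SE 0.26, adjusted p = 0.0117). Alox12b, a lipoxygenase known from skin, fell from 445, 594 and 402 counts to 48, 87 and 195 (-2.22, SE 0.47, adjusted p = 0.00728). Its log2 fold change was -2.99 without I/R replicate 3 and -1.83 without I/R replicate 1. Mgst3, a microsomal glutathione transferase and the most abundant of the group per length, was at -0.83 (SE 0.18, adjusted p = 0.00799). Lta4h, which makes leukotriene B4, had a log2 fold change of 0.08 (SE 0.09, adjusted p = 0.54).

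Among inactivation and transport genes, 3 of 9 others rose and 1 fell. Slco2a1, the prostaglandin transporter, rose by 0.61 (SE 0.19, adjusted p = 0.0323) and Abcc1, an exporter of leukotriene C4, by 0.55 (SE 0.16, adjusted p = 0.0233). Cyp4f18, which hydroxylates leukotriene B4, had 36, 10 and 16 counts after I/R against 4, 7 and 5 in sham (1.76, SE 0.59, adjusted p = 0.0442). It lost its call in 11 of 17 alternatives, with every sham library and with I/R replicates 1 and 3 left out in turn, and adjusted p-values over them ran from 0.0266 to 0.209. Ptgr2, a prostaglandin reductase, had the highest level per length of this group. Its log2 fold change was -0.14 (SE 0.11, adjusted p = 0.334), or 0.11 with library size alone.

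Of the receptors, 5 of 14 rose and 1 fell. Ptgir, the prostacyclin receptor, had 127, 43 and 27 counts after I/R against 6, 1 and 2 in sham (log2 fold change 4.21, SE 0.78, adjusted p = 0.0044). Ptger4, a prostaglandin E2 receptor, had 289, 177 and 140 counts against 106, 59 and 42 (1.40, SE 0.36, adjusted p = 0.0159). Ptger2, another, had 96, 38 and 46 against 17, 15 and 26 (1.44, SE 0.45, adjusted p = 0.0337). In each of these 3 the I/R libraries were all above the sham libraries in counts, and replicate 1 was the highest. Ptgdr, a prostaglandin D2 receptor, rose by 1.27 (SE 0.40, adjusted p = 0.0361), and Ptgfr, the prostaglandin F2 alpha receptor, by 1.10 (SE 0.33, adjusted p = 0.0292). Gpr17, a receptor of oligodendrocyte precursors related to the cysteinyl leukotriene receptors, fell from 2342, 2317 and 2187 counts to 392, 697 and 921 (-1.88, SE 0.30, adjusted p = 0.00257).

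The smaller receptor rises were less stable. Ptger4 lost its call without sham replicate 2 (adjusted p = 0.0708) or replicate 3 (0.0592), over a range of 0.000711 to 0.0708. Ptger2 lost it in 6 of 18 alternatives, over a range of 0.0115 to 0.121. These were without I/R replicate 1 (0.101), sham replicate 1 (0.106) or sham replicate 2 (0.115), the 4 libraries with much choroid plexus RNA (0.121), a replicate block (0.0543) and log2(FPKM + 1) (0.0537). Ptgdr lost it in 10 and Ptgfr in 8 of 18 alternatives, without each sham library and without I/R replicate 1 among them, over ranges of 0.016 to 0.15 and 0.0133 to 0.096. Ptgdr was also not called without I/R replicate 3 and Ptgfr without I/R replicate 2. Gpr17 was called in all 18 alternatives and Ptgir in the 17 that could be run for it. The size of the Ptgir change was less certain than its call. Its log2 fold change was 3.42 without I/R replicate 1, 5.13 without sham replicate 1 and 0.57 on the log2(FPKM + 1) scale.

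**Figure D5:**
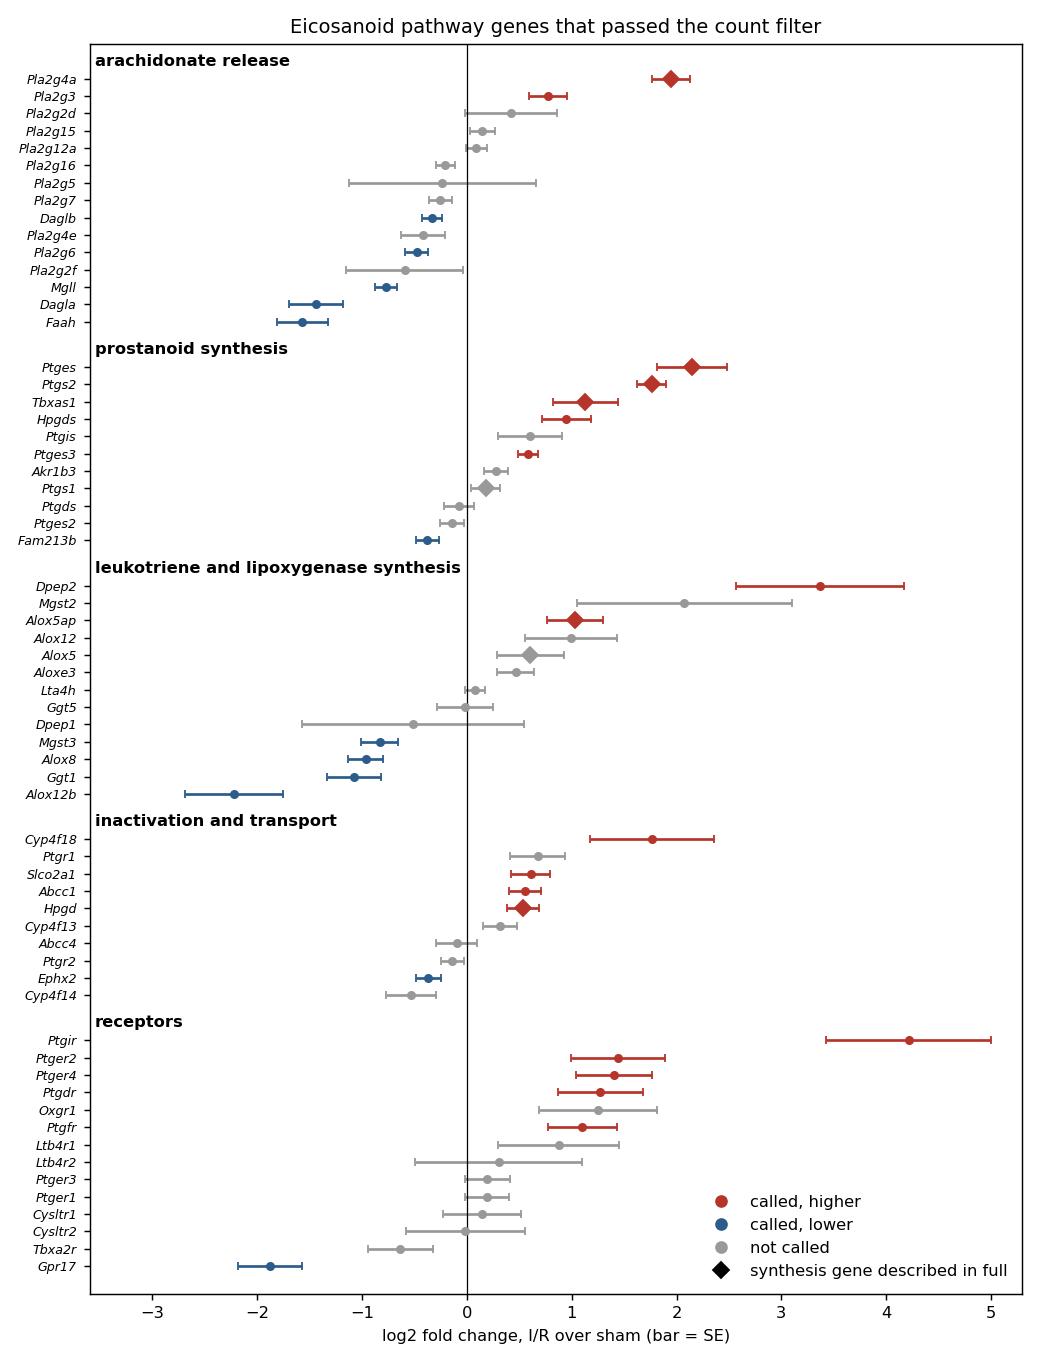
Log2 fold change of I/R over sham with its SE for the eicosanoid pathway genes that passed the count filter, grouped by role and sorted within each group, with called genes in colour. Of the 8 synthesis genes described first (diamonds) 6 are called higher; the other 55 split into 12 higher and 12 lower, from -2.22 (Alox12b) to 4.21 (Ptgir).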

How the data were processed

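Read counts per gene and FPKM per library were deposited by the authors in 1 table for the 6 libraries. Per the study's methods, the authors aligned reads with TopHat to an Ensembl genome and counted them per gene with HTSeq; the submitters' processing notes name Bowtie 0.12.2 and the build mm8, while 40303 of the 41386 gene identifiers are of the BALB/cJ annotation, in whose coordinates positions are given. FPKM are the deposited values, which the authors scaled by length and library; strand use is not given in the sources used here. For 4 genes a split line was rejoined. The table's own p-values and adjusted p-values of the authors' comparison were not used. Groups and replicate numbers came from the sample titles.

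The test was edgeR 4.0.16, run in R 4.3.3 (filterByExpr, TMM, glmQLFit with robust estimation, glmQLFTest, no covariate), with Benjamini-Hochberg adjustment over the 18569 genes tested. The SE is the log2 fold change divided by the square root of F, and its 95% interval uses the test's degrees of freedom. The script was tested on simulated data. TMM factors were 1.06 to 1.15 in I/R and 0.908 to 0.921 in sham. At this depth 3 counts equal 0.0659 to 0.0871 CPM, which covers counting error only. P-values measure the spread between these libraries. Ratios used counts plus 0.5. Alternatives were other scalings, filters and tools (DESeq2 1.42.0, limma 3.58.1), FPKM with pseudocounts of 1 and 0.1, a replicate block, a choroid plexus covariate and leaving libraries out. Promoters were read from the RefSeq table of GRCm38.p6, and shared 50-base stretches from GENCODE M21.

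The genes, pathway and marker lists were chosen with earlier results of these data known. Named were all listed synthesis genes, every called pathway gene with a log2 fold change of at least 1 in size, the pathway gene of highest mean FPKM of each role list, and the gene most like each synthesis gene; Pla2g3, Ptges2, Ptges3, Hpgds, Lta4h, Slco2a1, Abcc1, Pla2g5 and Dpep1 were named after their values were seen.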

Additional observations from a re-analysis of the deposited data

How the results depend on the processing

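Ptgs2, Ptges and Pla2g4a were called higher in all 18 alternatives, with log2 fold changes of 1.66 to 2.02, 1.74 to 2.50 and 1.76 to 2.21. Leaving out 1 library at a time gave 3 to 6 of the 8 synthesis genes called, with 3 without sham replicate 2 or 3. It gave 14 to 22 of the other pathway genes called in place of 24. Calls over all genes fell too without a sham library, from 7756 of 18569. They were 5611 of 19138, 5330 of 19153 and 5480 of 19246 without sham replicates 1, 2 and 3 in turn. Without 1 I/R library they were 6530 to 7976. In the 4 libraries with much choroid plexus RNA, 4 of the 8 synthesis genes were called, with Tbxas1 and Hpgd lost. In that setting 15 other pathway genes and 5255 of all 18816 genes tested were called. With a fold over 2, 12 other pathway genes were called, 7 of them higher, where 10.2% of all genes were called higher. The sign of the Ptgds difference turned to 0.18 with library size only, 0.19 with log2(FPKM + 1), 0.19 with log2(FPKM + 0.1), and leaving out 1 library at a time gave -0.17 (without sham replicate 3) to 0.024 (without sham replicate 2). That of Ptgr2 turned to 0.11 in the first 3 of these settings; the cause was not tested. Library size only moved the median of all genes to 0.28 and the split of other pathway genes from 12 higher of 24 called to 19 higher of 27, and log2(FPKM + 1) and log2(FPKM + 0.1) gave 15 of 23 and 20 of 28.

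Replicate numbers did not pair the libraries (correlation of deviations of same-numbered libraries -0.10, 0.06 and -0.18). With a replicate block, 5 synthesis genes, 18 other pathway genes and 6332 of all genes, in place of 7756, were called. Hpgd lost its call (adjusted p = 0.0655). Among the other genes named, Ptger2 (0.0543), Ptgdr (0.0677), Ptgfr (0.0767) and Cyp4f18 (0.107) lost theirs. The differences in the 4 log2 ratios, 1.59, 1.50, -0.38 and 0.87, cannot change with this block. The mean of the paired differences equals the difference of the group means, so the unchanged values do not test the block. Their exact p-values were 0.25 or more, and 0.25 is the smallest that so few pairs can give. The 4-library setting leaves 2 libraries a group, where the exact test of a ratio cannot go below 0.333. Of 144 gene values under alternatives, the 8 synthesis genes gave 128 on the same side of the threshold and 16 that changed side. Genes with few sham reads (Dpep2, Ptgir, Cyp4f18) are limited by depth.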

Other observations

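Pla2g5 and Dpep1, a secreted phospholipase and a dipeptidase of the leukotriene pathway, were low in the same libraries as the choroid plexus transcript Ttr. Pla2g5 had 92, 152 and 19 counts after I/R, against 12, 102 and 159 in sham, in the order of the replicate numbers. Dpep1 had 15, 32 and 4 counts after I/R, against 1, 17 and 46 in sham. For both genes I/R replicate 3 and sham replicate 1 were the lowest of their groups, as they were for Ttr. Their log2 fold changes between the groups, -0.23 (SE 0.89, adjusted p = 0.853) and -0.52 (SE 1.06, adjusted p = 0.725), did not pass the test.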
